A study of Mus musculus with 6 samples.

Results

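The genes described here encode 10 subunits of the machinery that moves new proteins into the endoplasmic reticulum (ER) and attaches the first sugars to them. They were chosen by name, as 10 of the 53465 genes in a deposited count table, matched by Ensembl identifier to GENCODE M21, and all 10 were found. Sec61a1, Sec61b, Sec62, Sec63 and Ssr1 belong to the translocon, and Stt3a, Stt3b, Rpn1, Rpn2 and Ddost to the oligosaccharyltransferase. The table holds ribosome profiling counts of ID8 cells, a cancer line from mouse ovarian surface epithelium. The 3 libraries labelled WT are cells with a control guide (sgNC), and the 3 labelled KO are cells with a guide against Nat10 (sgNat10), the gene of an RNA acetyltransferase. All 6 received cycloheximide (100 µg/mL, 2 minutes) before lysis. No label states where the guide cuts or whether the cells were a pool or a clone.

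Ribosomes that start making a secreted or membrane protein are carried by the signal recognition particle to the ER membrane and dock on the Sec61 channel. The chain is threaded through the channel as it is made, a signal peptidase removes its leading signal, and the oligosaccharyltransferase transfers a preassembled glycan to asparagines of the chain. Several genes of this route are known targets of the unfolded protein response, in which ATF6 and XBP1 raise the folding capacity of the ER. Ribosome profiling counts mRNA pieces shielded by ribosomes, so the amount of an mRNA and the number of ribosomes on it cannot be told apart here. In such bulk samples fewer cells with a transcript and less of it per cell also cannot be told apart.

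The coding sequence of Sec61b is shown because most of it cannot be placed uniquely by a fragment of this length. Sec61b lies on the plus strand at chr4:47474658-47483242 (GRCm38) and its GENCODE coding sequence has 288 bases. Of its 261 stretches of 28 bases, 230 (88.1%) also occur without mismatch elsewhere in the genome. Capitals mark the bases covered by a stretch found only at Sec61b, positions 1 to 29 and 220 to 288, counted from the start codon.

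Sec61b: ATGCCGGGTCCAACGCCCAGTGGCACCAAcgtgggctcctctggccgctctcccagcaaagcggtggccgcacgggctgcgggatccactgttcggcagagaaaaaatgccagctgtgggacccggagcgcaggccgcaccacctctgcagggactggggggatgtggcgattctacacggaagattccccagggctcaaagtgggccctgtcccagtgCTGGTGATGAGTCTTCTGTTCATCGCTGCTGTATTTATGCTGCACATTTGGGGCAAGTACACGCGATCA

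A near copy at chr13:98489537-98489821, annotated as the gene Gm10320, held 202 of the stretches. Its counts were 0 in every library except KO replicate 1, which had 2. How reads with several matches were counted is not stated in the sources used here. The other members had no such problem: no stretch of Sec61a1, Sec63, Ssr1, Stt3a, Stt3b, Rpn1 or Rpn2 recurred elsewhere, and 0.171% of Sec62 and 2.24% of Ddost did.

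Promoters are shown for Rpn1 and Stt3a, because both were lower in KO at an unadjusted p under 0.05, which Stt3b was not. Of the 10 members, 9 matched the RefSeq promoter table (GRCm38.p6), and Sec61a1 did not. Capitals mark CCAAT and CCACG on the printed strand, the letters at either end of the ER stress response element that ATF6 and XBP1 bind. The Rpn1 window is chr6:88084223-88084472, plus strand. The Stt3a window is chr9:36767680-36767872, minus strand, with 57 bases inside the GENCODE gene left out.

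Rpn1: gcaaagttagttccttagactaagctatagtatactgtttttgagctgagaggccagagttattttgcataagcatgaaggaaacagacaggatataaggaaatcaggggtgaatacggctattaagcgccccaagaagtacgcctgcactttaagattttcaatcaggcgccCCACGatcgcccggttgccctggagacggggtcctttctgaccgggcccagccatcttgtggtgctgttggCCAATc

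Stt3a: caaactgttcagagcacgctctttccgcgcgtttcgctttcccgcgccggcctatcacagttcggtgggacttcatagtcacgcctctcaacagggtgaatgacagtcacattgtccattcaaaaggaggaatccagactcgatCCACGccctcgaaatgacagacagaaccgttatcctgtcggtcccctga

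The element itself, searched on both strands, was in none of the members' windows of 250 bases before the start. It was in 0.113% of all 32851 windows of that length, among them those of Hspa5 and Hsp90b1. Also in none were its second form, ERSE-II (0.0304% of all windows), and TGACGTGG, the core of the UPR element (0.563%). CCAAT alone, which is contained in the element, was in windows of 6 members (33.8% of all windows), and CCACG alone in windows of 5 (28.3%). In Rpn1 the copy of CCAAT began 6 bases before the start and that of CCACG 77 bases before it; in Stt3a these distances were 35 and 106, the first of them in the part not printed. A match or its absence describes these letters only.

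Total counts of the libraries ran from 1687466 to 3126208. In each library the number of genes per count value had a second peak, here called the modal count, at 15 to 39 in the WT and 42 to 60 in the KO libraries. Counts divided by it are called molecule equivalents. The modal count was thus higher in all KO libraries, which moves with the label. Nat10 itself had counts of 168, 128 and 292 (WT) against 315, 133 and 445 (KO; log2 fold change -0.074, SE 0.48), so the labels could not be checked by a loss of Nat10 fragments and directions refer to the labelled libraries. Among epithelial and mesothelial markers 6 of 9 were tested. Krt18 and Krt19 fell, Msln rose, and the summed level, in CPM (counts-per-million of the TMM-normalised library), was 5885 to 6337 (WT) against 4180 to 4827 (KO). Most of this sum was Krt19, at 4202 ± 203 CPM (WT) against 2223 ± 32.1 CPM (KO; SD, n = 3). Krt8 was lower in every KO library but uncalled (log2 fold change -2.42, SE 0.87). The groups of Wt1 (-0.0036, SE 0.42) and Upk3b (0.47, SE 0.40) overlapped. The 6 leukocyte markers summed to at most 14.5 CPM, with Cd3e and Cd79a at 0 in every library. Of 6 fibroblast and endothelial markers only Col1a1 and Dcn were tested, and the list summed to 752 to 780 CPM (WT) against 967 to 1325 (KO). These markers went opposite ways: Dcn stood at 700.2 ± 35.6 CPM (WT) against 1117 ± 188 CPM (KO), and Col1a1 at 67.1 ± 21.9 CPM against 6.17 ± 8.77 CPM (SD, n = 3). Neither pair of groups overlapped. The log2 differences were 0.67 (SE 0.19) for Dcn and -3.44 (SE 1.19) for Col1a1, uncalled by edgeR (adjusted p 0.246 and 0.479) but called by DESeq2 (adjusted p 0.0047 and 0.025). The part of these markers in the results below was not tested.

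All 10 members passed the filter on low counts and were tested with 8200 genes. By edgeR's quasi-likelihood test none passed an adjusted p (Benjamini-Hochberg) of 0.05, which 0.402% of all tested genes did, 0.22% as lower and 0.183% as higher in KO. At an unadjusted p under 0.05, 3 members were lower in the KO libraries, against 3.79% of tested genes, and none was higher, against 2.7%. DESeq2 called 1 member, Sec61a1, lower, against 1.57%. In 4 members every KO library lay below every WT library, which held for 7.93% of tested genes, and in none did every KO library lie above, which held for 6.94%. The 1179 tested genes with at least 10 molecule equivalents on average included 7 members, and gave higher shares. Of these genes 12.3% were lower at an unadjusted p under 0.05, as were 3 of the 7 members, and in 15.4% every KO library lay below every WT library, as in the same 3 members (Stt3b is not among the 7). Fold changes of 7 members were negative. Over all tested genes 51.0% were negative, the share to set beside each count of negative fold changes below. The median log2 fold change of the members was -0.26 against -0.016 over all tested genes and -0.084 over those 1179.

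**Figure D1:**
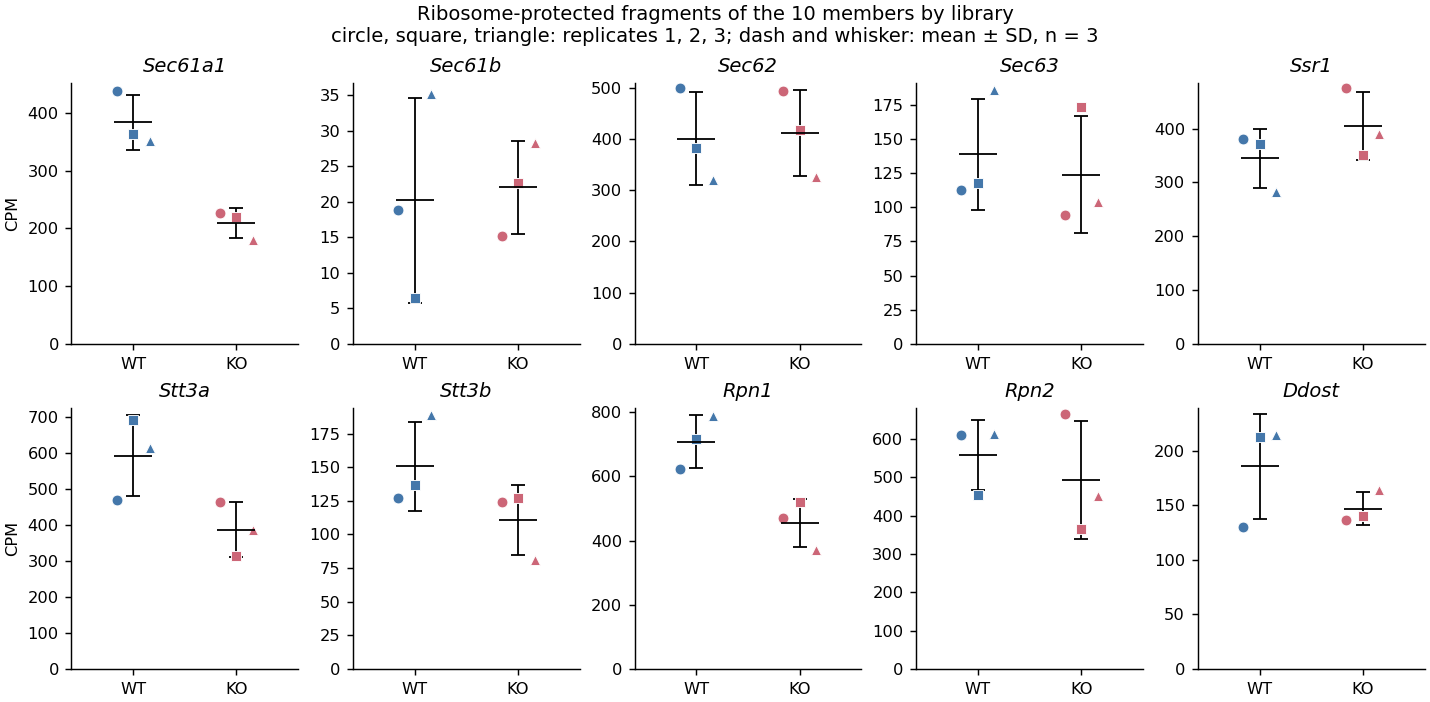
Each panel plots 1 member, with CPM on the vertical axis from 0 and the library label on the horizontal axis. Points are libraries, with a dash and whisker for mean and SD of 3. The KO libraries of Sec61a1 lie at 180 to 227 CPM, below the WT libraries at 351 to 439 CPM, while the groups of Sec62 and Ssr1 overlap.

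Sec61a1, the pore-forming subunit of the channel through which the chain passes, had the lowest fold change of the 10. The gene (ENSMUSG00000030082, minus strand, chromosome 6, 88503579 to 88518905, GRCm38) had counts of 722, 727 and 607 (WT) against 582, 515 and 581 (KO). After TMM normalisation this gave 439, 363 and 351 CPM (WT) against 227, 220.5 and 180.2 CPM (KO). The highest KO library thus lay well below the lowest WT library. Mean levels were 384 ± 47.7 CPM (WT) against 209 ± 25.3 CPM (KO; SD, n = 3), 0.544 times as high on the fitted scale. On the log2 scale KO lay at -0.88 relative to WT (SE 0.25, 95% interval -1.42 to -0.34), with an edgeR adjusted p of 0.286. DESeq2 gave -0.85 (SE 0.23) with an adjusted p of 0.011, the lowest over 7 other settings, in which adjusted p reached 0.412. Leaving out each library in turn gave values from -0.94 to -0.77, with adjusted p from 0.394 to 0.773 and an unadjusted p under 0.05 in 6 of 6 fits. On molecule equivalents the value was -0.83 with an adjusted p of 0.053.

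Sec61b, the small tail-anchored subunit of the same channel, gave no usable comparison. Its counts were 31, 13 and 61 (WT) against 39, 53 and 91 (KO), or 0.619 to 2.07 molecule equivalents per library. Levels were 20.2 ± 14.4 CPM (WT) against 22.0 ± 6.53 CPM (KO; SD, n = 3), and the 95% interval of the log2 fold change ran from -2.96 to 3.21. A change of several fold in either direction was not detectable at these counts.

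Sec62 and Sec63 assist the channel in taking up chains that reach it after or late in synthesis, and Sec63 recruits the chaperone BiP through its J domain. Sec62 (chromosome 3, 30792875 to 30821263, plus strand) was measured at 499.8, 383 and 320 CPM (WT) against 493, 417 and 325 CPM (KO). The groups covered nearly the same range, and the log2 fold change was 0.039 (SE 0.25, 95% interval -0.50 to 0.57). Sec63 (chromosome 10, 42761496 to 42832514, plus strand) was measured at 112, 118 and 186 CPM (WT) against 94.4, 173 and 104 CPM (KO). WT replicate 3 and KO replicate 2 were the high libraries of their groups, and the log2 fold change was -0.16 (SE 0.39, 95% interval -0.998 to 0.67).

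Ssr1, a subunit of the translocon-associated protein complex that sits beside the channel, had the highest fold change of the 10. The gene (chromosome 13, 37966605 to 37994217, minus strand) was measured at 381, 372 and 282 CPM (WT) against 475, 351 and 389 CPM (KO). WT replicate 3 was the lowest and KO replicate 1 the highest library, and the remaining 4 lay together between 351 and 389 CPM. The log2 fold change was 0.23 (SE 0.24, 95% interval -0.28 to 0.74), an interval that leaves out a fall of the size fitted for Sec61a1.

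Levels of Sec61a1 relative to those of Sec62 and Ssr1 did not overlap between the groups. Per kilobase of coding sequence the ratio of Sec61a1 to Sec62 was 0.734, 0.794 and 0.918 (WT) against 0.385, 0.442 and 0.463 (KO). The ratio of Sec61a1 to Ssr1 was 0.692, 0.587 and 0.749 (WT) against 0.287, 0.377 and 0.278 (KO). These ratios do not depend on library scaling. They are among 6 ratios of members that were computed, chosen after the values were seen, and are given without a test.

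All 5 oligosaccharyltransferase members had negative fold changes, with a median of -0.45, whereas 2 of the 5 translocon members did, with a median of 0.039. The difference between these sets was not tested. Summed over the 5, levels were 1959, 2211 and 2416 CPM (WT) against 1860, 1464 and 1453 CPM (KO). KO replicate 1 lay close to WT replicate 1, and the other KO libraries lay further below. The sum over the 5 translocon members was 1289 ± 145 CPM (WT) against 1172 ± 139 CPM (KO; SD, n = 3), a difference within the spread.

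**Figure D2:**
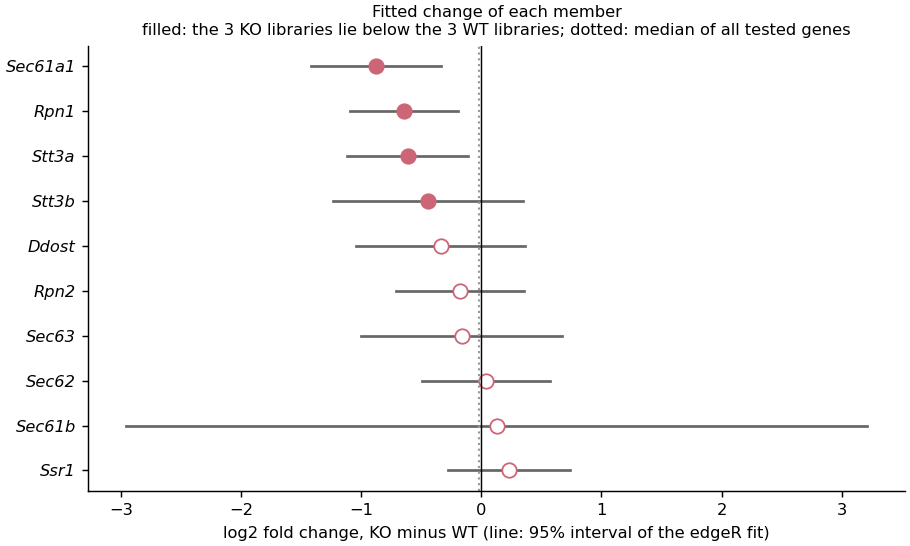
The horizontal axis is the log2 fold change, KO minus WT, and each line is the 95% interval from edgeR's fit of 3 against 3 libraries. Filled points are the 4 members whose KO libraries all lie below the WT libraries; only the intervals of Sec61a1, Rpn1 and Stt3a leave out 0, and none of these passed adjustment over all tested genes.

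Rpn1, ribophorin I, is a subunit shared by both forms of the complex. The gene (ENSMUSG00000030062, chromosome 6, 88084482 to 88105304, plus strand) was measured at 621, 716 and 787 CPM (WT) against 470.5, 519 and 372 CPM (KO). The groups did not overlap. Means were 708 ± 83.3 CPM (WT) against 454 ± 75.1 CPM (KO; SD, n = 3), with a log2 fold change of -0.64 (SE 0.21, 95% interval -1.09 to -0.19, edgeR adjusted p = 0.429). Adjusted p over 7 other settings ran from 0.060 with DESeq2 to 0.571. Without single libraries the value ran from -0.74 to -0.52, with an unadjusted p under 0.05 in 6 of 6 fits.

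Stt3a and Stt3b are the alternative catalytic subunits. Complexes with Stt3a glycosylate chains as they leave the channel, and those with Stt3b reach sites that were skipped. Stt3a (ENSMUSG00000032116, chromosome 9, 36729344 to 36767679, minus strand) was measured at 471, 693 and 613 CPM (WT) against 464, 313 and 385 CPM (KO). The groups were separated only by the small gap between WT replicate 1 and KO replicate 1. The log2 fold change was -0.61 (SE 0.23, 95% interval -1.11 to -0.11, edgeR adjusted p = 0.547). The unadjusted p was 0.020 and stayed under 0.05 in 4 of 6 fits without single libraries.

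Stt3b (chromosome 9, 115242581 to 115310421, minus strand) was measured at 127, 136 and 188 CPM (WT) against 124, 127 and 80.7 CPM (KO). Here too the highest KO library lay only just under the lowest WT library. The log2 fold change was -0.45 (SE 0.37, 95% interval -1.24 to 0.35). Per kilobase of coding sequence, Stt3a exceeded Stt3b by 4.32, 5.93 and 3.80 times in the WT libraries and by 4.35, 2.88 and 5.57 times in the KO libraries, ranges that overlap.

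Rpn2, ribophorin II, and Ddost, the subunit also called OST48, are likewise shared. Rpn2 (chromosome 2, 157279017 to 157326319, plus strand) was measured at 609.9, 453 and 612 CPM (WT) against 664, 365 and 451 CPM (KO). KO replicate 1 was the highest of the 6 libraries and KO replicate 2 the lowest, and the log2 fold change was -0.18 (SE 0.25, 95% interval -0.71 to 0.35). The ratio of Rpn1 to Rpn2 per kilobase varied within each group, over 1.06 to 1.64 (WT) and 0.735 to 1.47 (KO). Ddost (chromosome 4, 138304730 to 138312628, plus strand) was measured at 130.1, 213 and 214 CPM (WT) against 137, 140.0 and 164 CPM (KO). WT replicate 1 lay below all KO libraries, and the log2 fold change was -0.34 (SE 0.33, 95% interval -1.04 to 0.37).

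**Figure D3:**
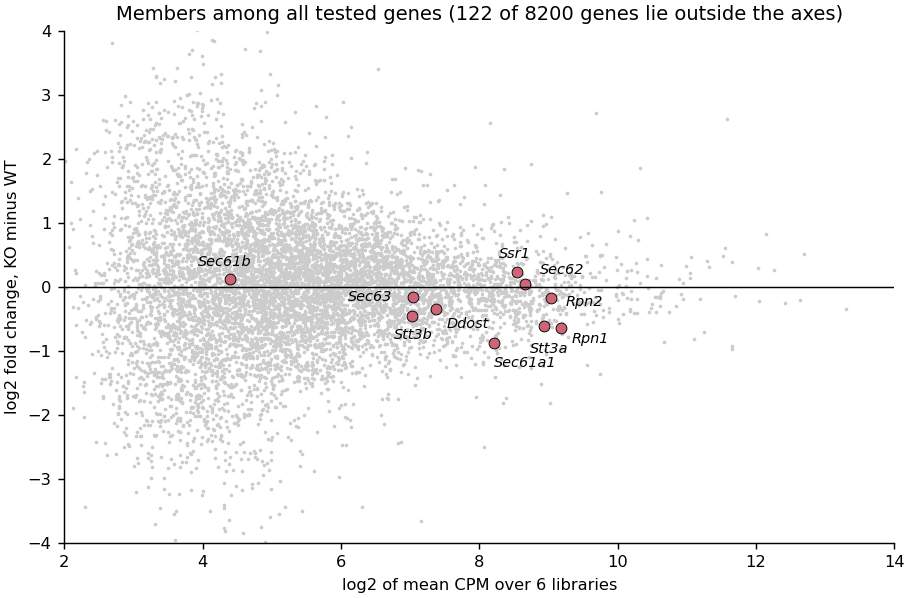
Grey points are tested genes and red points the 10 members, with the log2 of mean CPM over 6 libraries on the horizontal axis and the log2 fold change, KO minus WT, on the vertical axis. Of 8200 genes 122 lie outside the axes. Sec61a1, Rpn1 and Stt3a sit among abundant genes at -0.88, -0.64 and -0.61, and Sec61b sits in the wide cloud of low genes.

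Levels can be compared between genes only per length, here as CPM per kilobase of coding sequence. On that scale the order in WT was Ssr1 (402 ± 64.1), Rpn1 (388 ± 45.6), Sec62 (336 ± 76.5), Rpn2 (295 ± 48.1), Stt3a (280 ± 53.3), Sec61a1 (269 ± 33.4), Ddost (140 ± 36.5), Sec61b (70.2 ± 50.1), Stt3b (61.0 ± 13.4) and Sec63 (60.8 ± 17.9; SD, n = 3 for each). Neighbours among the first 6 did not differ beyond their spread, nor did the last 3. The clearest step lay between Sec61a1, whose lowest WT library was at 246, and Ddost, whose highest was at 162.

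In KO the order began with Ssr1 (472 ± 73.8) and Sec62 (345 ± 70.3), and Rpn1 (249 ± 41.2) came after Rpn2 (261 ± 81.3). Stt3a (183 ± 35.7) and Sec61a1 (147 ± 17.7) kept the fifth and sixth places with densities closer to that of Ddost (111 ± 11.5). Most stretches of Sec61b recur elsewhere, so its density cannot be read as a level. Coding sequences of the members span 288 to 2469 bases and 42.8% to 61.5% GC, and the genes lie on 7 chromosomes.

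**Figure D4:**
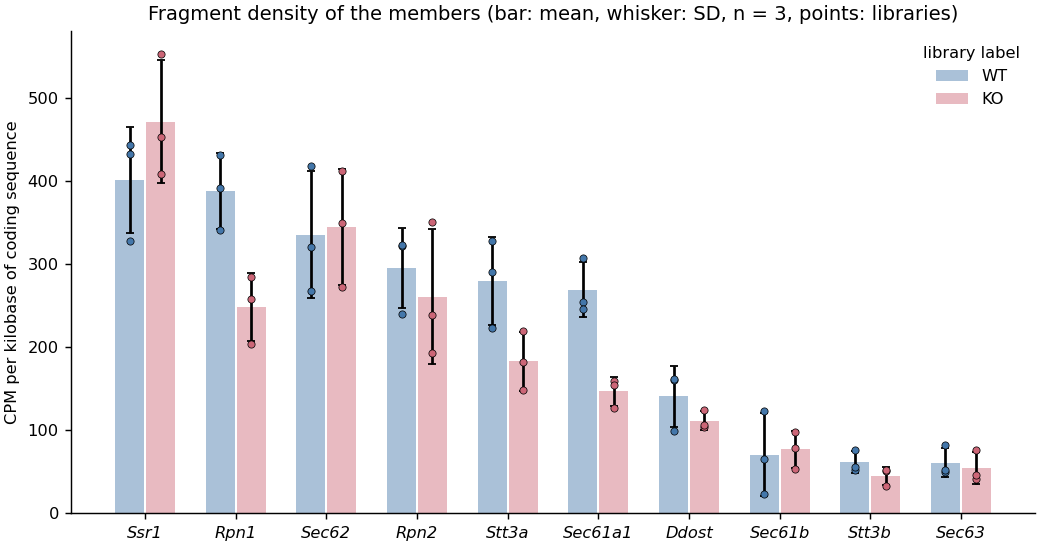
Bars are mean CPM per kilobase of coding sequence with SD (n = 3), points are libraries, and members are ordered by their WT mean. The first 6 members lie between 269 and 402 in WT. KO bars are lower than WT bars for Rpn1, Stt3a, Sec61a1, Rpn2, Ddost, Stt3b and Sec63, and higher for Ssr1, Sec62 and Sec61b.

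Apart from Sec61b, the 9 other members had at least 185 counts in every library and 4.33 to 68.2 molecule equivalents. Their coefficient of variation within a group ran from 10.3% for Ddost in KO to 34.6% for Sec63 in KO. For Sec61b it was 71.4% (WT) against 29.6% (KO).

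Genes that act before, with or right after the members were followed as 9 lists with 76 genes, of which 68 were tested. None was called by edgeR. At an unadjusted p under 0.05, 3 were lower, against 3.79% of all tested genes, and 3 higher, against 2.7%. DESeq2 called 2 of the 68, Emc1 and Srp72, both higher, against 2.88% of genes it tested called in either direction. Of the 68, 44 had negative fold changes, against 51.0% of all tested genes, and the median of the 68 was -0.14.

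Emc1 had the smallest adjusted p in these lists. It encodes the large lumenal subunit of the ER membrane complex, an insertase for membrane proteins that works beside Sec61. Emc1 counts were 134, 173 and 80 (WT) against 546, 742 and 635 (KO), and levels were 71.4 ± 21.9 and 243 ± 65.6 CPM (SD, n = 3). The groups did not overlap, and the log2 fold change was 1.76 (SE 0.37, edgeR adjusted p = 0.063). It was called in 5 of 7 other settings, and in 0 of 6 fits without single libraries, where the value ran from 1.53 to 1.92. Of the 9 tested subunits 7 had negative fold changes (median -0.48), for example Emc4 (-0.53, SE 0.51) and Emc3 (-0.57, SE 0.57).

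Srp72, a protein of the signal recognition particle, stood at 94.9 ± 38.6 CPM (WT) against 242 ± 48.5 CPM (KO; SD, n = 3; log2 difference 1.35, SE 0.37, edgeR adjusted p = 0.245). It was called in 3 of 7 other settings. Its binding partner Srp68 stood at -0.82 (SE 0.49). Of 10 genes of this particle and its receptor 6 were tested, with a median of -0.16. Srp54a, Srp54b and Srprb had no count in any library. For Srp54a and Srp54b, near-identical copies, 76.7% of stretches of 28 bases recur elsewhere. Srprb has none that recur, but lies on the same strand as the overlapping gene Gm20425, which also had no count in any library. Srp9 had counts of 29, 19 and 29 in WT and 0 in each KO library. All its stretches recur elsewhere, so no fold is given.

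All 7 other translocon and TRAP subunits had negative fold changes, with a median of -0.63, and none was called. Tram1, a membrane protein at the channel, stood at 210 ± 52.8 CPM (WT) against 123 ± 22.0 CPM (KO; SD, n = 3; log2 difference -0.77, SE 0.34, edgeR adjusted p = 0.688). Its groups were separated only by the small gap between WT replicate 1 (150.2 CPM) and KO replicate 1 (145.5 CPM). The unadjusted p of edgeR was 0.037 and stayed under 0.05 in 2 of 6 fits without single libraries. Sec61g, the third subunit of the channel, stood at -0.68 (SE 0.54). Every stretch of its coding sequence recurs elsewhere. Tram2, with counts of 32, 111 and 49 (WT) against 43, 0 and 1 (KO), stood at -2.59 (SE 1.92), and at -7.25 without KO replicate 1. The paralog Sec61a2 was measured at 46.8, 42.0 and 90.2 CPM (WT) against 33.5, 118 and 23.0 CPM (KO), with no separation. The TRAP subunits Ssr2, Ssr3 and Ssr4 stood at -0.42, -0.55 and -0.63 (SE 0.43, 0.55 and 0.70), against 0.23 for Ssr1.

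The 7 other oligosaccharyltransferase subunits, most of them small proteins, went both ways (4 negative, median -0.13). The interchangeable oxidoreductases of the Stt3b form, Magt1 and Tusc3, stood at 0.11 (SE 0.41) and -0.76 (SE 1.41). The value of Tusc3 ran from -2.02 without KO replicate 1 to -0.25 without KO replicate 2. Dad1, a small shared subunit, was measured at 76.0, 76.0 and 74.6 CPM (WT) against 121, 58.7 and 17.1 CPM (KO), so its spread lay in the KO libraries. Ostc stood at -0.64 (SE 0.65) and Krtcap2 at 1.03 (SE 0.86).

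The remaining lists had no called gene by edgeR or DESeq2. In signal peptidase (5 tested, median -0.076), Spcs3 was higher in every KO library than in any WT library, at 76.1 ± 23.9 CPM against 33.2 ± 1.62 CPM (SD, n = 3) and a log2 difference of 1.19 (SE 0.59), and Spcs2 stood at -0.84 (SE 0.49). In the multipass translocon (6 tested, median 0.36), Tmco1 stood at 34.6 ± 3.59 CPM (WT) against 94.6 ± 41.7 CPM (KO; 1.45, SE 0.55, edgeR adjusted p = 0.547), and Ccdc47 at -0.70 (SE 0.41). Of stretches of 28 bases, 39.8% of those of Spcs2 and 28.6% of those of Ccdc47 recur elsewhere. Tail-anchor insertion (6 tested) had a median of 0.092.

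Enzymes that build the glycan donor (18 tested) had a median of -0.22, with 11 negative. Alg6, a glucosyltransferase of that pathway, stood at -2.57 (SE 1.19), with counts of 71, 82 and 230 (WT) against 40, 49 and 0 (KO). Dpagt1, which starts the donor, stood at 1.62 (SE 1.34), with counts of 16, 27 and 19 (WT) against 78, 137 and 54 (KO). Dpm1 had no count in any library and overlaps Gm20716 on the same strand, which also had no count in any library. The 4 genes that trim the transferred glycan were all negative (median -0.88). Their best measured members were Ganab, the catalytic subunit of glucosidase II (-0.13, SE 0.22, with a sign that changed in fits without single libraries), and Prkcsh, its other subunit (-0.51, SE 0.32).

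**Figure D5:**
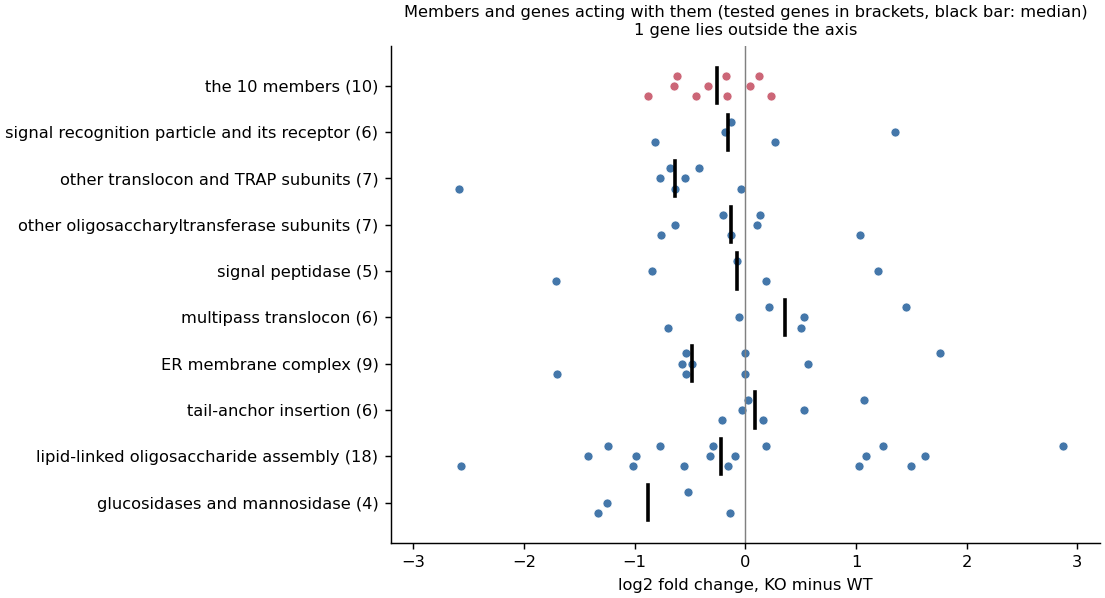
Each point is a tested gene at its log2 fold change, KO minus WT, with the 10 members in red in the top row and the 9 lists in blue; black bars are medians and 1 gene lies outside the axis. The members' median is -0.26, that of other translocon and TRAP subunits -0.63, and points of the lists spread wider on both sides.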

How the data were processed

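Ribosome-protected fragments of 6 mouse ID8 libraries (3 WT, 3 KO) were analysed. The authors deposited whole-number counts per Ensembl gene, not normalized. Per the labels' protocols, adapters were trimmed, reads of 25 to 34 nt kept, rRNA and tRNA matches discarded (Bowtie) and the rest aligned to GRCm38 (HISAT2) and transcripts (Bowtie). Other tools in the submitters' processing notes are cutadapt, featureCounts and DESeq2. Annotation, strand setting, duplicate removal and versions: not given in the sources used here. Of 53465 identifiers 53274 matched GENCODE M21.

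Groups were compared in edgeR 4.0.16 (R 4.3.3) by the robust quasi-likelihood test with TMM factors. Of the genes, filterByExpr kept 8200, and a call needed an adjusted p (Benjamini-Hochberg) below 0.05. The common biological coefficient of variation was 0.99. Per-kilobase levels use 1 principal coding transcript a gene. Modal counts came from the smoothed histogram (bandwidth 3, counts 8 to 150). Alternatives were DESeq2 (1.42.0), its size factors or library totals in edgeR, no filter, 50 counts in 3 libraries, molecule equivalents, the replicate block and single libraries left out. The fit was tested on simulated counts. Stretches of 28 bases were compared with the genome on both strands by exact match.

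The members, lists and rule for named genes were chosen with earlier results of these data known. The rule took the members, Nat10, and up to 3 genes per list with the smallest p and the 3 genes most correlated with the member of smallest p; other genes were named after their values were seen. The labels do not say that replicates are separate cultures, so each p reflects spread among libraries, which may be technical. Reads carry no molecular identifiers that the labels mention, so counts may include repeated molecules.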

Additional observations from a re-analysis of the deposited data

How the results depend on the processing

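No member was called in 6 of 7 other settings or in any of 6 fits without single libraries; DESeq2 called 1, Sec61a1. The count over all tested genes was 33 of 8200 and became 234 of 8129 with DESeq2, 91 of 12794 with no count filter, 110 of 968 on molecule equivalents, where 6 members were tested, and 6 to 29 without single libraries. Dropping WT replicate 2 or WT replicate 3 left 6, and dropping KO replicate 1, 2 or 3 left 15, 20 and 18. The cause was not tested. The members' median log2 fold change ran from -0.29 to -0.15 in the 7 settings and from -0.42 to -0.17 without single libraries. Sec61a1, Stt3a, Stt3b, Rpn1, Ddost and Ssr1 kept their sign in every setting that tested them. Without single libraries the sign of Sec61b changed (-0.29 to 0.80), as did those of Sec62 (-0.10 to 0.23), Sec63 (-0.48 to 0.10), Rpn2 (-0.44 to 0.0036), Bag6 (-0.087 to 0.47), Ganab (-0.26 to 0.042) and Nat10 (-0.35 to 0.35). With library totals Nat10 stood at 0.026, and the all-gene median was 0.093 in place of -0.016.

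Shared replicate numbers did not pair the libraries: deviations of same-numbered libraries from their group means correlated at -0.017 to -0.0026 over tested genes. With the replicate block 38 genes and 0 members were called, and the members' median was -0.26. Low counts limit Sec61b most.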

Other observations

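The members with the lowest and second lowest fold change are neighbours. Rpn1 and Sec61a1 lie 398 kb apart on chromosome 6, with 2 tested genes between them, Eefsec (log2 fold change 0.25, SE 1.34) and Ruvbl1 (-0.16, SE 1.29), both poorly measured. Of 10 tested genes within 1 Mb of Sec61a1, 7 had negative fold changes (median -0.28), and of 11 within 1 Mb of Rpn1, 9 (median -0.31). Each window includes the other member. None of these neighbours was called by edgeR, and those lower at an unadjusted p under 0.05 were the other member and Copg1. Among genes lying wholly inside the windows, the smallest SEs outside the members were those of Copg1 and Mcm2. Copg1, a subunit of the COPI coat, had a log2 fold change of -0.72 (SE 0.26), and Mcm2, a replicative helicase subunit, one of -0.25 (SE 0.26). These windows were chosen after the positions and values were seen.

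By log2 CPM over the 6 libraries, the genes whose pattern was most like that of Sec61a1 were Rrp1, a ribosome biogenesis factor, Tkt, the transketolase, and Eif3m, an initiation factor subunit, at Pearson r = 0.985, 0.984 and 0.982. Their log2 fold changes were -1.53 (SE 0.36), -0.74 (SE 0.22) and -1.02 (SE 0.28). With so few libraries 133 tested genes reached r = 0.9 or more, and the 6 points share the separation between the labels. Among the members the nearest was Rpn1 (r = 0.86) and the farthest Ssr1 (r = -0.37).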
